A study of Rattus norvegicus with 12 samples.

Results

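The genes described here encode precursors of peptides known from sensory neurons: Tac1, Calca, Calcb, Sst, Nppb, Nmb, Vgf, Scg2 and Cartpt. They were found by matching the gene name of each array probe to these 9 symbols. The match gave 8 of the 9 genes, with 12 probes, among 35287 gene names on the array, and Nmb, the neuromedin B precursor, was not analysed here because no probe carried its name. All 8 passed the filter on dim probes and were among the 29623 genes tested, and the probe that stood for each was well above background on all 12 arrays.

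Sensory neurons of the limb have their cell bodies in dorsal root ganglia, and lumbar ganglia 4 to 6 supply the sciatic nerve. Male Sprague-Dawley rats of 180 to 220 g had a 1 cm piece of the left sciatic nerve removed under anaesthesia, and ganglia were taken 0.5, 3, 6 or 9 h later. The labels give 24 rats in 4 groups of 6 and 3 arrays per time, without saying how rats were combined on arrays, so a p-value here reflects only how far these samples spread, and that spread can include technical variation. Every group was injured and anaesthetised, so 0.5 h served as the reference, no value for an uninjured ganglion was used here, and none of the values is a resting level.

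Peptide precursors are made in the neuronal cell body, sorted into dense-core vesicles, cut by proteases on the way and shipped along the axon to both its ends. In small-diameter sensory neurons they include substance P and calcitonin gene-related peptide (CGRP), which act as transmitters in the spinal cord and dilate vessels in the skin. Days after a sciatic nerve cut, sensory neurons are known to make less of several of these peptides and more of others. Whole ganglia were measured, so fewer cells of a type and less RNA per cell cannot be told apart.

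Levels are log2 intensities relative to each array's 75th percentile of probes, and intensities are the scanner software's background-subtracted values. The share of probes well above background ran from 63.2 to 85.3% over the 12 arrays and was lowest at 0.5 h (63.2 to 67.5%). The 0.5 h, 3 h and 9 h arrays each lay on 1 slide and the 6 h arrays on 2, and the scan day differed between times except that 3 h and 6 h shared one. No slide held arrays of different times, so slide and time cannot be told apart in any comparison, that of 6 h with 3 h included. Scan day and time cannot be told apart in comparisons with 0.5 h or 9 h, whereas the comparison of 6 h with 3 h lies within 1 scan day. All 10 tested peptidergic nociceptor markers and all 14 tested pan-neuronal markers were well above background on the 12 arrays, as were 9 of 10 satellite glia markers, 8 of 8 Schwann cell markers and 12 of 12 skeletal muscle markers.

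With the brightest kept probe standing for each gene, Scg2 rose 1.27-fold from 0.5 h to 3 h. No other of the 8 genes passed the test in any of the 5 comparisons with that probe. In a limma fit over single probes, other probes of Calca, described below, were called at 3 h against 0.5 h. They moved in opposite directions (0.31, adjusted p = 0.012, and -0.58, adjusted p = 0.00182), and neither call held under normexp background correction. By limma's moderated test with Benjamini-Hochberg adjustment over all genes, 1 of 8 passed at 3 h against 0.5 h (higher), where 23.3% of all genes tested were called, 10.6% higher and 12.7% lower. Against 0.5 h, none of 8 passed at 6 h (13.3% of all genes called, 4.28% higher and 9.07% lower) or at 9 h (33.8% called, 23.5% higher and 10.3% lower). None of 8 passed between 3 h and 6 h (10.8% called, 5.87% higher and 4.95% lower) or between 6 h and 9 h (25.4% called, 19.5% higher and 5.87% lower). Unadjusted p-values under 0.05 were found for Scg2 and Tac1 in the first comparison and for Nppb and Scg2 between 3 h and 6 h, and for none of the 8 in the other 3. Over all 4 times the moderated F test called 1 of 8, Scg2 again (adjusted p = 0.0268), beside 44.2% of all genes. The F test called 0 of 8 under normexp background correction, with the replicate number as a block, and when 0.5 h replicate 1, 0.5 h replicate 3 or a single 3 h array was left out.

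**Figure D1:**
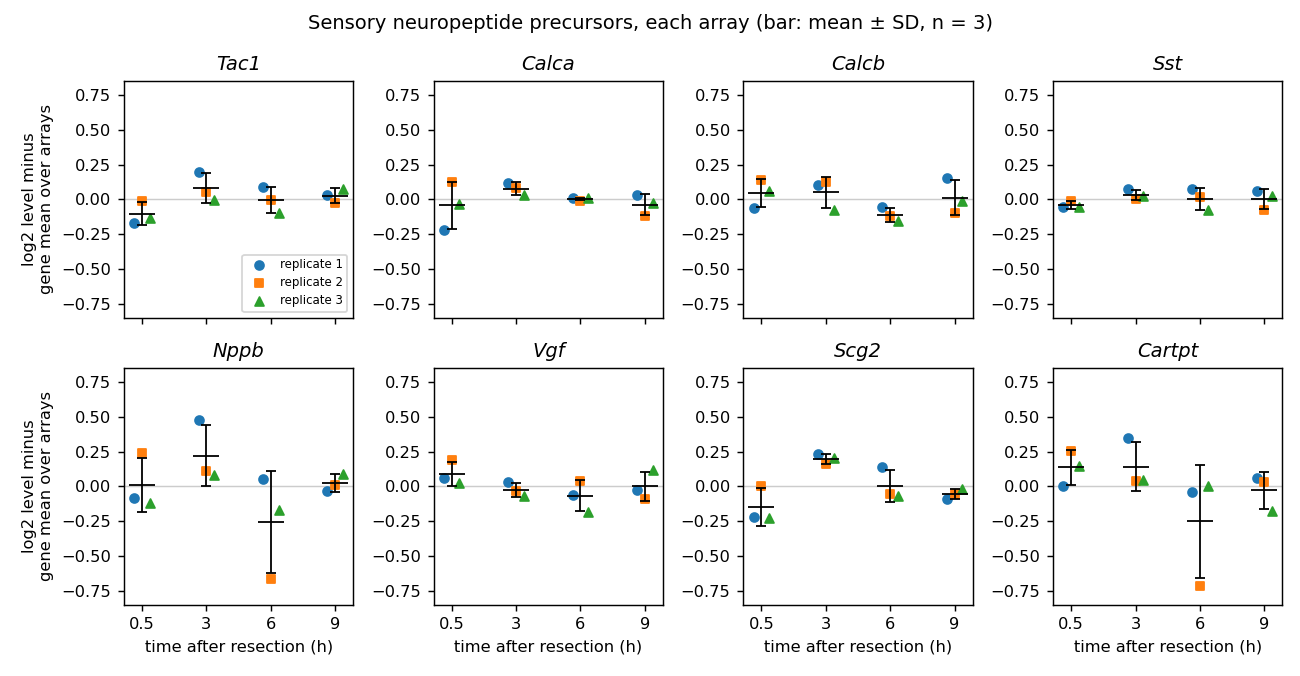
Level of each precursor on each array, as log2 level minus that gene's mean over the 12 arrays, against time after resection in h. Points are arrays, horizontal bars the mean and vertical bars the SD (n = 3). The 3 h points of Scg2 lie above its 0.5 h points, and 6 h replicate 2 is the lowest point for Nppb and Cartpt.

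The regulatory sequences of 4 of these genes share 1 feature. The letters TGACGTCA, the palindrome known as the cyclic AMP response element, stand in the RefSeq promoters (GRCr8, 250 bases before to 50 after the start) of Sst, Vgf, Scg2 and Cartpt, 4 of the 8 listed genes with a promoter entry. Calcb has no entry. Of 33469 promoters of that length 1.83% hold these letters. They are shown because cyclic AMP signalling through this element is a textbook route to peptide gene transcription. The letters were thus chosen with peptide genes in mind, and their share among these genes is not an independent result. Each line gives 30 bases on the gene's strand with the element in capitals.
Scg2, chr9:88256971-88257000, minus strand: ggctgagccggTGACGTCAgcgaggaatgc
Vgf, chr12:25277092-25277121, minus strand: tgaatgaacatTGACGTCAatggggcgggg
Sst, chr11:90461537-90461566, plus strand: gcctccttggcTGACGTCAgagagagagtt
Cartpt, chr2:32991359-32991388, minus strand: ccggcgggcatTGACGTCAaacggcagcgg

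Counted from the annotated start, the element began at position -123 in Scg2, -90 in Vgf and -142 in Cartpt, and at position 3, after the start, in Sst. The short form TGACG, searched on both strands and contained in the full element, was found in those 4 and in Tac1 and Calca, 6 of 8, against 21.2% of promoters. The E-box CACGTG was in Tac1, Nmb and Vgf (3 of 8, against 6.42%), the TATA box letters TATAAA in Nppb and Vgf (2 of 8, against 14.2%), and the AP-1 letters TGANTCA in none of the 8 (7.33% of promoters). A match describes these letters and is not evidence of binding. Of the 4 genes with the full element, Scg2 was called at 3 h against 0.5 h and Sst, Vgf and Cartpt were not.

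Tac1 encodes the precursor of substance P and neurokinin A. Its intensities were 73920, 80498 and 72618 at 0.5 h, 92716, 88377 and 75357 at 3 h, 89117, 77310 and 84047 at 6 h, and 87204, 81694 and 85951 at 9 h. After scaling, its 3 h arrays all lay above its 0.5 h arrays, whereas raw intensities at those times overlap. The log2 difference was 0.18 (SE 0.08, 95% interval 0.01 to 0.35, adjusted p = 0.111), a mean 1.14-fold higher. At 9 h it was 0.13 above 0.5 h (interval -0.04 to 0.30, adjusted p = 0.215), so a change above 1.23-fold lay outside the interval. The scaled values of 3 h and 0.5 h did not overlap in 3 of the 8 genes (Tac1, Sst and Scg2), where this held for 41% of all genes. Those of 6 h and 3 h did not overlap in 4 of 8 (Calca, Nppb, Scg2 and Cartpt), against 35.5%. No such separation from 0.5 h was seen at 6 h (36.9% of all genes) or 9 h (48.7%), nor between 6 h and 9 h (44.3%).

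Calca encodes calcitonin and alpha-CGRP, which come from alternative splicing of the same transcript, and neurons splice it mainly towards CGRP. The array had 3 probes, on rn4 chromosome 1, minus strand, and the first 30 bases of each are shown because the probes did not move together. In order along the gene, the first lies in a coding exon common to both transcripts, the next on the calcitonin side and the last on the CGRP side. Positions come from the array files, and the assignment to the sides of the splice choice is background knowledge applied to them.
Common-exon probe, chr1:172689248-172689307: aggcatggccactctcagtgaagaagaagc
Calcitonin-side probe, chr1:172688290-172688349: ttggcaactaggtccctcctctcctttcca
CGRP-side probe, chr1:172686316-172686443: gttggctattgtgcatcgtgttgtatgtga

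The CGRP-side probe was the brightest of the 3 and stood for the gene. Its intensities were 187763, 232206 and 204875 at 0.5 h, 230993, 238066 and 203698 at 3 h, 222358, 203073 and 237967 at 6 h, and 229389, 200836 and 211110 at 9 h. These intensities overlapped between all times. The scaled levels did so too, except that those of 3 h lay above those of 6 h, and no comparison passed. The 9 h mean differed from that at 0.5 h by 0.01 (SE 0.08, interval -0.18 to 0.19, adjusted p = 0.969), and the 3 h mean by 0.12 (interval -0.07 to 0.31, adjusted p = 0.331). The interval at 9 h spans 0.882 to 1.14-fold.

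The calcitonin-side probe followed another course. Its intensities were 4915, 4766 and 5362 at 0.5 h, 3346, 3171 and 3457 at 3 h, 6041, 5935 and 6237 at 6 h, and 3709, 3937 and 3926 at 9 h. No array of 3 h or 9 h overlapped any of 0.5 h or 6 h. In a fit over single probes, it fell by 0.58 on the log2 scale at 3 h against 0.5 h (SE 0.09, adjusted p = 0.00182, where 11.9% of 34837 probes were called lower), then rose by 0.81 from 3 h to 6 h (SE 0.09, adjusted p = 0.000365, 5.63% called higher) and fell by 0.66 from 6 h to 9 h (SE 0.09, adjusted p = 0.00044, 6.18% called lower). Against 0.5 h it was lower by 0.42 at 9 h (SE 0.09, adjusted p = 0.00572, 10.4% called lower), and its 6 h difference of 0.23 did not pass (adjusted p = 0.113). A called fall, rise and fall in that order was seen in 1027 probes, 2.95% of those tested. The probe was printed as 10 spots, whose median coefficient of variation within an array was 5.03%. These comparisons were chosen after the values were seen, and under normexp background correction the falls no longer passed, with log2 differences of -0.51 for 3 h (adjusted p = 0.0763) and -0.46 for 9 h (adjusted p = 0.122), each against 0.5 h, and -0.66 from 6 h to 9 h (adjusted p = 0.0641). The rise from 3 h to 6 h passed under all 21 alternatives run on it, with an adjusted p of at most 0.031.

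The common-exon probe had intensities of 48088, 50583 and 47524 at 0.5 h, 64315, 60011 and 55607 at 3 h, 57444, 50326 and 57078 at 6 h, and 54461, 48282 and 53423 at 9 h. It rose by 0.31 at 3 h against 0.5 h (SE 0.07, adjusted p = 0.012, where 11.2% of probes were called higher), opposite in direction to the calcitonin-side probe, but the call ended under normexp (0.16, adjusted p = 0.962). The mean log2 ratio of the common-exon probe to the calcitonin-side probe within an array was 3.28 ± 0.13 at 0.5 h, 4.17 ± 0.14 at 3 h, 3.18 ± 0.08 at 6 h and 3.77 ± 0.13 at 9 h (SD, n = 3). The ratio differed over the 4 times by an exact permutation test over the 12 arrays (p = 0.00026, 0.000682 after adjustment over the 3 ratios), and likewise for the CGRP-side over the calcitonin-side probe (p = 0.000455 by the exact permutation test, adjusted 0.000682). The CGRP-side over the common-exon ratio was 2.09, 1.90, 2.01 and 2.04 and did not pass (p = 0.0985, exact permutation test). A ratio between different probes has no meaning as a level, so only its change over time is described. The ratios were formed after the probe values were seen, which the adjustment does not cover. Both ratios that passed share the calcitonin-side probe, so they restate its course and are not separate results. Regrouping the arrays cannot separate time from slide.

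**Figure D2:**
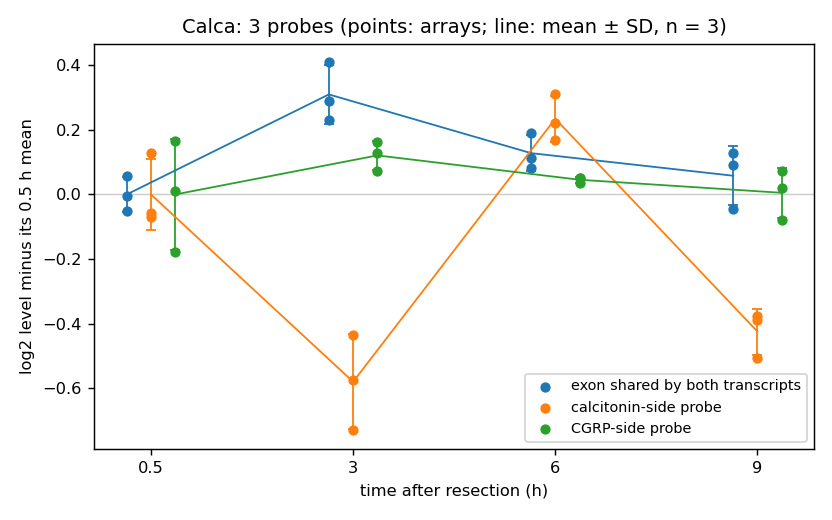
The 3 probes of Calca as log2 level minus the mean at 0.5 h, against time after resection in h. Points are arrays and lines join the means with SD (n = 3). The calcitonin-side probe is low at 3 h and 9 h, with no overlap with its 0.5 h and 6 h arrays, while the CGRP-side probe stays within the spread of its 0.5 h arrays.

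Calcb encodes beta-CGRP, a separate gene for a near-identical peptide. Its intensities were 62909, 70532 and 65502 at 0.5 h, 68383, 73613 and 56718 at 3 h, 63821, 56284 and 63854 at 6 h, and 74806, 61163 and 63652 at 9 h. All 4 times overlapped, and the largest difference of the 5 was 6 h against 3 h (-0.16, SE 0.09, interval -0.35 to 0.03, adjusted p = 0.271). Neither of the CGRP genes passed at any time with the probe that stood for it.

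Sst encodes somatostatin, an inhibitory peptide, and it was the steadiest of the 8. Its intensities were 45853, 46058 and 43766 at 0.5 h, 48594, 48809 and 44201 at 3 h, 50568, 44912 and 48742 at 6 h, and 51005, 45167 and 47564 at 9 h. The pooled SD between arrays was 0.06 on the log2 scale, and the median SD between its spots within an array was 0.05. Each array value is a mean of 9 or 10 spots, so these SDs are unlike measures. All 5 intervals lay between -0.16 and 0.21, so changes above 1.15-fold up at 3 h against 0.5 h lay outside them, and the lowest adjusted p was 0.419. At 9 h against 6 h the difference was 0.00 (adjusted p = 0.987), but median scaling gave -0.22 with adjusted p = 0.0389.

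Nppb encodes B-type natriuretic peptide, which sensory neurons use in the itch pathway. Its intensities were 3303, 4024 and 3092 at 0.5 h, 4737, 3879 and 3373 at 3 h, 3674, 2067 and 3371 at 6 h, and 3517, 3529 and 3656 at 9 h. Replicate 2 at 6 h was the lowest of all 12 arrays. The 6 h mean was 0.48 below that at 3 h on the log2 scale (SE 0.18, interval -0.88 to -0.08, adjusted p = 0.123), and without 6 h replicate 2 it was -0.28 (adjusted p = 0.317). At 9 h the difference from 0.5 h was 0.01 (adjusted p = 0.967). One other Nppb probe, on the opposite strand and dim, was well above background on 0 of 3 arrays at 0.5 h, 2 at 3 h, 2 at 6 h and 3 at 9 h. It passed the filter only through 9 h, where its intensities were 41.1, 55.1 and 60.5, against 12.8, 15.0 and 18.3 at 6 h, and no test of it is given. Because it lies on the opposite strand, it does not measure the Nppb transcript itself, and averaging it with the first probe would turn the gene's 9 h value to 0.71 above 0.5 h. The remaining Nppb probe, also on the opposite strand and overlapping the dim one, was well above background on 0 of 12 arrays and was dropped. Its intensities were 8.1, 4.8 and 19.5 at 9 h, against 16.9, 16.0 and 21.3 at 0.5 h.

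Vgf encodes a precursor of several secreted peptides that neurotrophins induce. Its intensities were 47786, 51043 and 44587 at 0.5 h, 45602, 45979 and 39931 at 3 h, 44426, 44067 and 43770 at 6 h, and 46344, 43031 and 48761 at 9 h. It was the only one of the 8 with its highest mean at 0.5 h, and its lowest was at 6 h (-0.16 against 0.5 h, SE 0.08, interval -0.34 to 0.02, adjusted p = 0.224). In the other 7 the highest mean level after scaling was at 3 h, but for Calcb and Cartpt it was only 0.003 and 0.006 above that at 0.5 h, within their spread. By mean intensity before scaling, Sst was highest at 6 h, Calcb at 9 h and Cartpt at 0.5 h.

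Scg2 encodes secretogranin II, a dense-core vesicle protein that is also cut into secretoneurin. Its intensities were 14201, 16248 and 13527 at 0.5 h, 18950, 19055 and 17424 at 3 h, 18437, 14910 and 17065 at 6 h, and 16015, 15931 and 16016 at 9 h. Every 3 h array lay above every 0.5 h array. The difference was 0.35 on the log2 scale (SE 0.08, 95% interval 0.17 to 0.53, adjusted p = 0.0129), which is 1.27-fold with an interval of 1.12 to 1.44-fold. It then stood 0.20 lower at 6 h than at 3 h (interval -0.38 to -0.02, adjusted p = 0.153), and at 9 h it was 0.09 above 0.5 h (adjusted p = 0.393). Under normexp the difference at 3 h was 0.49 but did not pass (adjusted p = 0.126). The probe for Scg2, chr9:78763534-78763593 on rn4, minus strand, begins gatggagaatgtagcaaatcagaagtcccc.

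Cartpt encodes the cocaine- and amphetamine-regulated transcript peptide. Its intensities were 834, 969 and 884 at 0.5 h, 1028, 875 and 782 at 3 h, 818, 473 and 903 at 6 h, and 890, 852 and 721 at 9 h. The array at 6 h replicate 2 was again the lowest. The 6 h mean was 0.39 below that at 0.5 h (SE 0.18, interval -0.79 to 0.02, adjusted p = 0.192), and without 6 h replicate 2 it was -0.15 (adjusted p = 0.485). On that array the mean centred level of the 12 skeletal muscle markers was 2.02, the highest of the 12 arrays, which ranged from -1.47 upward. The next highest muscle levels were 1.15 at 3 h replicate 2 and 1.02 at 3 h replicate 1. Nppb and Cartpt both had their highest level of the 12 arrays on 3 h replicate 1. The part of muscle RNA in the low Nppb and Cartpt values of 6 h replicate 2 was not tested.

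**Figure D3:**
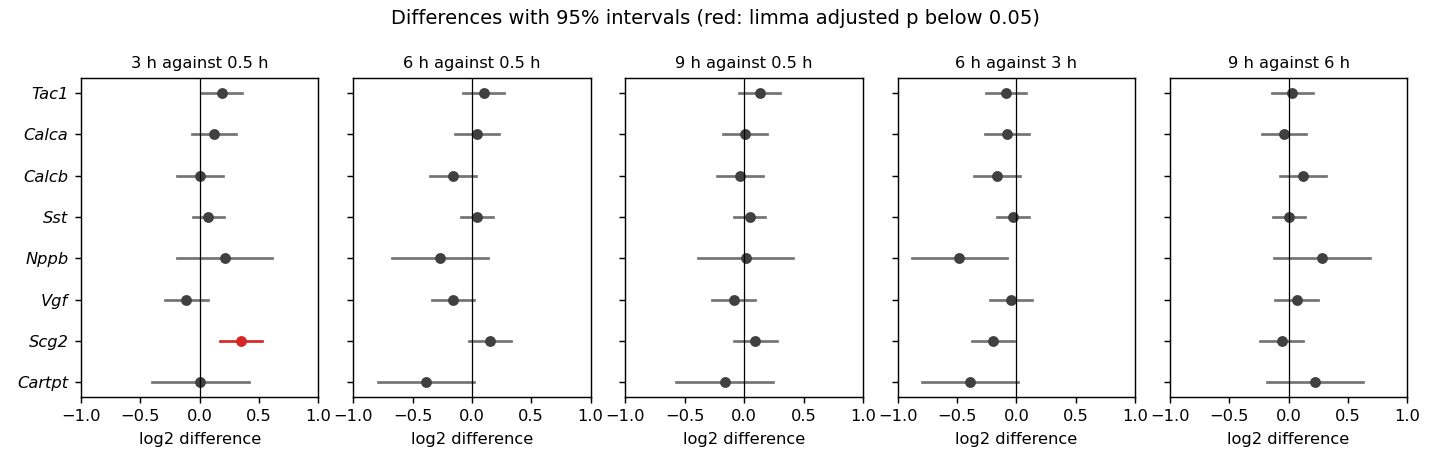
Log2 difference between times for each precursor (points) with 95% intervals (lines), in 1 panel per comparison. The interval of Scg2 at 3 h against 0.5 h, 0.17 to 0.53, is the one drawn in red, for an adjusted p below 0.05, and those of Nppb and Cartpt are the widest.

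The time means of 5 precursors were close together when set beside genes well above background on all 12 arrays. Those genes were not matched to the precursors for brightness. The range of the 4 time means was 0.07 for Sst, 0.12 for Calca, 0.16 for Calcb, 0.16 for Vgf and 0.18 for Tac1 on the log2 scale. The median over genes well above background on all 12 arrays was 0.31. Between 1.75% and 20.3% of those 21390 genes had a smaller range than these 5. Scg2 (0.35), Cartpt (0.39) and Nppb (0.48) stood at 56.4%, 63.0% and 73.0%. The pooled SD between arrays was 0.24 for both Cartpt and Nppb, above that of 87.5% and 87.3% of the same genes, and 0.09 for Scg2. The 5 precursors with the small ranges were also the brightest. Their lowest intensity on any array was 39931 (Vgf), whereas the highest among Scg2, Cartpt and Nppb was 19055 (Scg2). Whether their small ranges go with brightness was not tested.

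**Figure D4:**
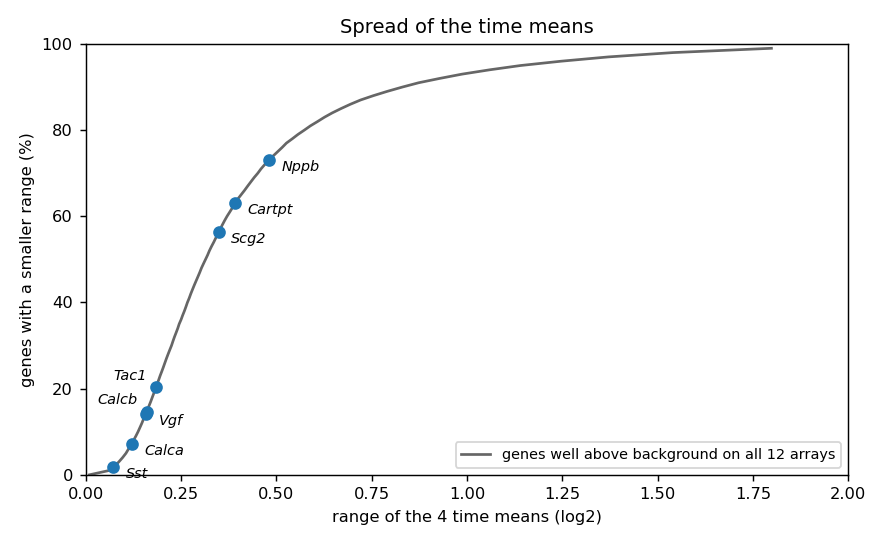
Share of genes with a smaller range of time means, in percent, against that range in log2 units, for genes well above background on all 12 arrays (line) with the 8 precursors marked. Sst, Calca, Vgf, Calcb and Tac1 lie below 0.19, and Scg2, Cartpt and Nppb lie above the median of 0.31.

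The genes whose levels ran closest to those of each precursor were named over 10592 candidates, by the root mean squared difference of centred log2 levels over the 12 arrays. For Scg2 they were Atp5g1 (0.05) and Bhlhb9 (0.05), for Tac1 Cox4i1 (0.03) and Kcns3 (0.04), and for Vgf Scn11a (0.05) and Ap2m1 (0.05). For Sst they were Ppp2r5d (0.02) and Cse1l (0.03), for Calca MGC116197 (0.04) and Ndufv2 (0.04), and for Calcb Brunol4 (0.04) and Acaca (0.04). The closest to Nppb, Rhpn2 and Slc16a6, lay at 0.14 each, and those to Cartpt, Scrg1 and Akr1b7, at 0.11 and 0.13. The size of such a distance also depends on how much a gene varied. The SD over the 12 arrays was 0.05 for Sst, 0.26 for Nppb and 0.25 for Cartpt. The distances are therefore not comparable between precursors. Closeness of this kind says only that the centred values lay near each other on these arrays.

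Of 21 genes tested that cut and store the peptides, 3 were higher and 2 lower at 3 h against 0.5 h (all genes 10.6% and 12.7%), 2 and 1 at 6 h (4.28% and 9.07%), and 4 and 2 at 9 h (23.5% and 10.3%). The median difference at 9 h was -0.03, against 0.11 over all genes. Pcsk1n, which encodes the inhibitor of the protease PC1, rose by 0.40 at 9 h against 0.5 h (SE 0.07, adjusted p = 0.00271), and Stx1a, a syntaxin of the release machinery, by 0.71 (SE 0.10, adjusted p = 0.000772). Dnajc5, a vesicle chaperone, rose by 0.63 from 6 h to 9 h (SE 0.09, adjusted p = 0.000441), and Chgb, chromogranin B, was lower by 0.39 at 6 h against 0.5 h (SE 0.07, adjusted p = 0.00665). None of these calls held under normexp, with adjusted p from 0.207 to 0.396, though each kept its direction.

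The named calls in the next 3 groups did not pass under normexp either (adjusted p from 0.0815 to 0.967). Of 18 receptor genes for these peptides, 5 were higher and 2 lower at 9 h against 0.5 h (all genes 23.5% and 10.3%). The median difference was 0.26, against 0.11 over all genes. From 3 h to 6 h, 0 were higher and 3 lower (all genes 5.87% and 4.95%). Tacr2, the neurokinin A receptor, rose by 1.06 from 6 h to 9 h (SE 0.08, adjusted p = 1.69e-05) after standing 0.52 lower at 6 h than at 3 h, a direction that turned under normexp (0.11). Ramp2, which pairs with the calcitonin receptor-like receptor, rose by 0.40 at 9 h against 0.5 h (SE 0.09, adjusted p = 0.00831). Sstr3, a somatostatin receptor, was well above background on 1 of 3 arrays at 0.5 h and on all later ones, so no size is given for it. Sstr5, another, was lower at 9 h than at 0.5 h by 1.03 (SE 0.24, adjusted p = 0.00935), a direction that turned under normexp (0.11).

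Of 20 other neuropeptide precursors tested, 1 was higher at 3 h (all genes 10.6%), 2 at 9 h (23.5%) and none at 6 h (4.28%) against 0.5 h. From 6 h to 9 h, 5 were higher (all genes 19.5%). Oxt, the oxytocin precursor, was not well above background at 0.5 h and rose by 0.83 from 6 h to 9 h (SE 0.16, adjusted p = 0.00405), but did not pass under quantile scaling (0.29, adjusted p = 0.146) or cyclic loess (0.38, adjusted p = 0.0848). Grp, the gastrin-releasing peptide precursor, was well above background on 0 of 3 arrays at 0.5 h, 3 at 3 h, 2 at 6 h and 3 at 9 h, so no size is given for it. Hcrt, the orexin precursor, rose by 0.81 from 6 h to 9 h (SE 0.17, adjusted p = 0.00594). Ucn, the urocortin precursor, rose by 0.51 in the same comparison (SE 0.12, adjusted p = 0.0127), but did not pass under quantile, median or cyclic loess scaling (0.22 to 0.28, adjusted p from 0.115 to 0.258) or without 6 h replicate 3 (adjusted p = 0.052).

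Next were 8 genes for proteins that bind the cyclic AMP response element or act with them. At 9 h against 0.5 h, 3 were higher and none lower (all genes 23.5% and 10.3%). The median was 0.18, against 0.11 over all genes. From 6 h to 9 h, 2 were higher and 2 lower (all genes 19.5% and 5.87%). Creb1, the classic binding protein, rose by 0.34 at 9 h against 0.5 h (SE 0.05, adjusted p = 0.00117). Crtc2, a coactivator, rose by 0.89 from 6 h to 9 h (SE 0.15, adjusted p = 0.00172). Atf2 was lower by 0.31 at 9 h than at 6 h (SE 0.08, adjusted p = 0.0136), which ended without 6 h replicate 3 (adjusted p = 0.0535) and turned under normexp (0.03). Ep300, a coactivator, rose by 0.22 at 9 h against 0.5 h (SE 0.06, adjusted p = 0.0213), but did not pass under median scaling (0.10, adjusted p = 0.323). Its call also ended when 0.5 h replicate 2 was left out (adjusted p = 0.0705), and likewise for 0.5 h replicate 3 (adjusted p = 0.0598) and 9 h replicate 3 (adjusted p = 0.0755).

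Of 10 peptidergic nociceptor markers 1 was higher at 3 h, 1 lower at 6 h and 2 higher at 9 h against 0.5 h. Of 14 pan-neuronal markers 1 was higher and 3 lower at 3 h against 0.5 h (all genes 10.6% and 12.7%). At 6 h against 0.5 h, 1 was higher and 5 lower (all genes 4.28% and 9.07%). At 9 h against 0.5 h, 1 was higher and 4 lower (all genes 23.5% and 10.3%). From 3 h to 6 h, 1 peptidergic marker was lower and no pan-neuronal marker was called. From 6 h to 9 h, 2 peptidergic markers and 1 pan-neuronal marker were higher (all genes 19.5%). Under normexp 0 genes of either list were called in any comparison.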

How the data were processed

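RNA of 12 ganglion samples, 3 per time, was hybridised to 1-colour Agilent arrays. Per the file headers, Feature Extraction 10.5.1.1 measured 45018 spots, and the deposited values are intensity per spot on a linear scale, already background-subtracted, with coordinates on rn4. The sources used here name no further processing. Control spots (1639) and outlier spots (76 to 218 per array) were dropped, log2 values were averaged per probe and each array's 75th percentile was subtracted. Of 41012 probes, 34837 were kept (1 or more times with every array well above background), and the brightest kept probe stood for each gene. Limma 3.58.1 in R 4.3.3 (lmFit, eBayes) was fitted over 29623 genes and all 12 arrays, with Benjamini-Hochberg adjustment at 0.05, and tested on simulated data. The number of arrays limits the precision. Named genes were all members, up to 4 called genes per list by smallest F p, and the 2 nearest genes per member. The members, lists, motifs and probe comparisons were chosen with earlier results of these data known. Alternatives changed background correction, scaling, filter, probe choice, blocks, samples fitted and variance model.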

Additional observations from a re-analysis of the deposited data

How the results depend on the processing

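The count of members called was compared under every alternative. At 3 h against 0.5 h it was 0 under normexp and 2 with slide as a random block (Tac1 joined Scg2). At 6 h against 0.5 h it was 1 with the slide block. At 9 h against 0.5 h it was 1 with the slide block and 1 with the mean of all kept probes. At 6 h against 3 h it was 3 with the slide block. At 9 h against 6 h it was 2 under median scaling. It was also 2 with the mean of all kept probes, Nppb (1.03) and Calca (-0.26, adjusted p = 0.012). The opposite-strand probe enters that mean for Nppb, and the common-exon and calcitonin-side probes enter it for Calca. The F test called 0 under normexp, 3 with the mean of all kept probes, 3 with the slide block and 0 with the replicate block. Leaving out 1 array gave 0 to 1 by the F test (0 with 0.5 h replicate 1, 0.5 h replicate 3 or a single 3 h array left out) and moved no other count. The slide block rests on an estimated correlation of -0.255. Same-numbered arrays of different times correlated from -0.1332 to 0.2231 once each time's mean was removed. With 3 arrays per time this does not settle whether the numbers pair the samples. The replicate block changed no other member count. Over all genes, counts ranged from 650 to 14078 at 3 h, 1 to 9019 at 6 h and 414 to 17012 at 9 h against 0.5 h, 308 to 8130 at 6 h against 3 h, 167 to 12590 at 9 h against 6 h and 658 to 21923 by the F test, lowest under normexp and highest with the slide block. Scg2 at 3 h against 0.5 h ranged from 0.30 to 0.49 over 24 alternatives. Of 40 member differences 22 changed sign in at least 1 of 24 alternatives, and none of these was among the reported calls. The one called after turning was Sst at 9 h against 6 h under median scaling (-0.22), which moves every gene's difference there by -0.22. Among list genes they turned under normexp for Opalin at 6 h against 0.5 h (0.69), Sstr5 at 9 h against 0.5 h (0.11), Tacr2 (0.11), Grp (0.37) and Cdh5 (0.065) at 6 h against 3 h, and Atf2 at 9 h against 6 h (0.034). Under quantile scaling they turned for Grp (1.74) and Opalin (0.35) at 6 h against 0.5 h, and for Creb1 at 9 h against 6 h (-0.036), while the difference of Nefm there vanished (0). Median scaling turned Creb1 at 9 h against 6 h (-0.042), cyclic loess Opalin at 6 h against 0.5 h (0.078), and the mean of all kept probes Map1b at 3 h against 0.5 h (0.037). Unless stated, the cause was not tested.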
